A study of Pyrus pyrifolia with 6 samples.

Results

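The genes described here code for the photosynthetic apparatus of the chloroplast, and they were followed in the fruit skin of Cuiguan, a cultivar of the sand pear Pyrus pyrifolia. They are all genes of the deposited table whose description contains "chlorophyll a-b binding", "photosystem", "oxygen-evolving enhancer" or "ribulose bisphosphate carboxylase", or begins with "plastocyanin", which gave 84 of 42933 genes. The skin came from 3 libraries of bagged fruits and 3 libraries of untreated fruits, all from trees aged 6 years in an orchard and all sampled 95 days after full bloom. Bagged fruits wore single-layer white paper bags from day 20 and double-layer yellow-white bags from day 40, and untreated fruits stayed uncovered. The labels call the libraries biological replicates and do not say how many fruits or trees went into each, so p-values measure the spread between these libraries. The study set out to learn how the partly russeted, corky skin of this cultivar forms.

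Green plant cells catch light with pigment-protein antennae that feed photosystem II and photosystem I. Photosystem II splits water with the help of the oxygen-evolving enhancer proteins, and the electrons pass through the cytochrome b6-f complex and plastocyanin to photosystem I. The energy gained drives the Calvin cycle, in which RuBisCO fixes carbon dioxide and RuBisCO activase keeps it active. Skin cells of a young green fruit hold working chloroplasts, and in many plants transcription of these nuclear genes depends on light. The 84 genes comprised 21 of the photosystem II antenna, 5 of the photosystem I antenna, 3 antenna genes whose description names no photosystem, 16 of photosystem II subunits and their assembly, 7 of oxygen-evolving enhancers, 19 of photosystem I subunits, 1 plastocyanin, 5 RuBisCO small chains and 7 RuBisCO activases. No member is described as the RuBisCO large chain.

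Libraries held between 15764049 and 19546285 counts, and 25139 genes passed the filter on low counts. Of the 84 photosynthesis genes, 73 passed that filter, 6 had a few counts (at most 70 over all libraries) and 5 had none. Pear carries most of these genes in several copies, and 70 members share a description with another member, so reads of closely similar copies may not be separated with certainty. A further limit is that 4 members overlap another gene that holds at least 10% of their own count, with the strand setting of the counting unknown. Untreated replicate 1 stood apart from all other libraries in these genes, and values are therefore given for each library.

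Photosynthesis transcripts were far more abundant in untreated replicate 1 than in any other library. Bagged replicate 2 lay above untreated replicates 2 and 3, and bagged replicates 1 and 3 lay below them. The 84 genes together took 0.398%, 0.495% and 0.336% of all counts in bagged replicates 1, 2 and 3, against 0.796%, 0.441% and 0.433% in untreated replicates 1, 2 and 3. Untreated replicates 2 and 3 lay inside the range of the bagged libraries, by bagged replicate 2 alone, and untreated replicate 1 exceeded the mean of the other 5 libraries 1.89-fold. In FPKM (the authors' level per gene length and library depth), the sum was 4268, 5368 and 3625 in the bagged libraries and 8308, 4562 and 4416 in the untreated ones. In a bulk library, fewer green cells and less of these transcripts per cell cannot be told apart.

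**Figure D1:**
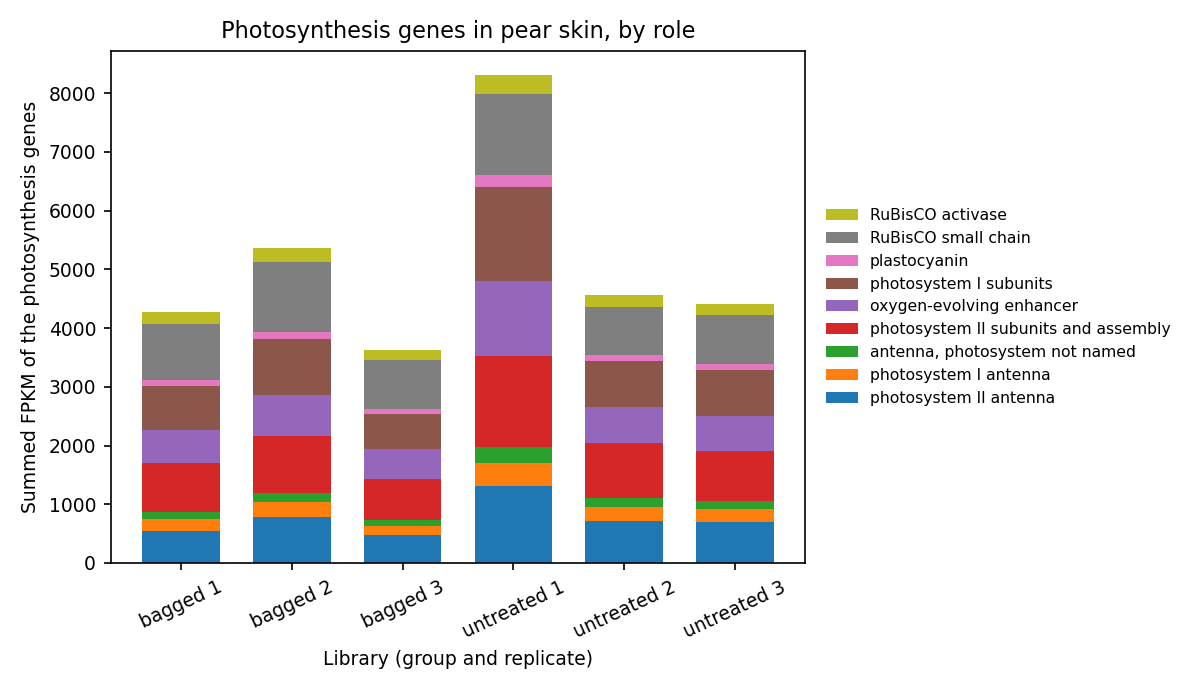
Summed FPKM of the 84 photosynthesis genes in each library, stacked by role, with the 3 bagged libraries left of the 3 untreated ones. Untreated 1 reaches 8308, and the other 5 libraries lie between 3625 and 5368, with bagged 2 above untreated 2 and 3.

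None of the 73 tested genes passed the threshold in either direction (edgeR quasi-likelihood test on counts, Benjamini-Hochberg adjusted p below 0.05 over all tested genes), where 2.67% of all tested genes did, 0.971% higher and 1.69% lower in bagged skin. The smallest adjusted p of a member was 0.129. At an unadjusted p below 0.05 there were 16 members, or 21.9%, all of them lower in bagged skin, where 7.71% of all tested genes were lower by that rule. The log2 fold change of bagged over untreated was below 0 for 67 of the 73, against 51.6% of all tested genes, with a median of -0.48 and a range of -1.28 to 0.41. The median over all tested genes was -0.01. The median standard error (SE) of a member's log2 fold change was 0.29, against 0.17 over all tested genes, so differences of the size of the median were within about 2 SE. With DESeq2, 3 members were called lower and none higher, where it called 5.97% of all tested genes, 2.96% lower and 3.01% higher.

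The pattern was shared by nearly all members and ran by library more than by group. Untreated replicate 1 had the highest FPKM in 69 of the 73 tested members, against 20.0% of all tested genes. Its level was a median of 2.07 times the median of the other 5 libraries, and it exceeded that median more than 2-fold in 39 members. Bagged replicate 3 had the lowest level in 55 members, and bagged replicate 2 was the highest of the bagged libraries in 66. In 38 members both other untreated replicates lay within the range of the 3 bagged libraries, and in 11 both lay above it. For the counts of 39, 55, 66, 38 and 11 no share over all tested genes was computed. They, and such counts by role below, only describe the members. The SD of log2(CPM + 0.1) among untreated libraries had a median of 0.58 over the members, against 0.18 over all tested genes. Among bagged libraries these medians were 0.30 and 0.18, so members varied more than other genes within both groups. Across the 6 libraries, 52 members correlated above 0.9 with the median profile of the other members, a description in which all points share the same libraries.

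**Figure D2:**
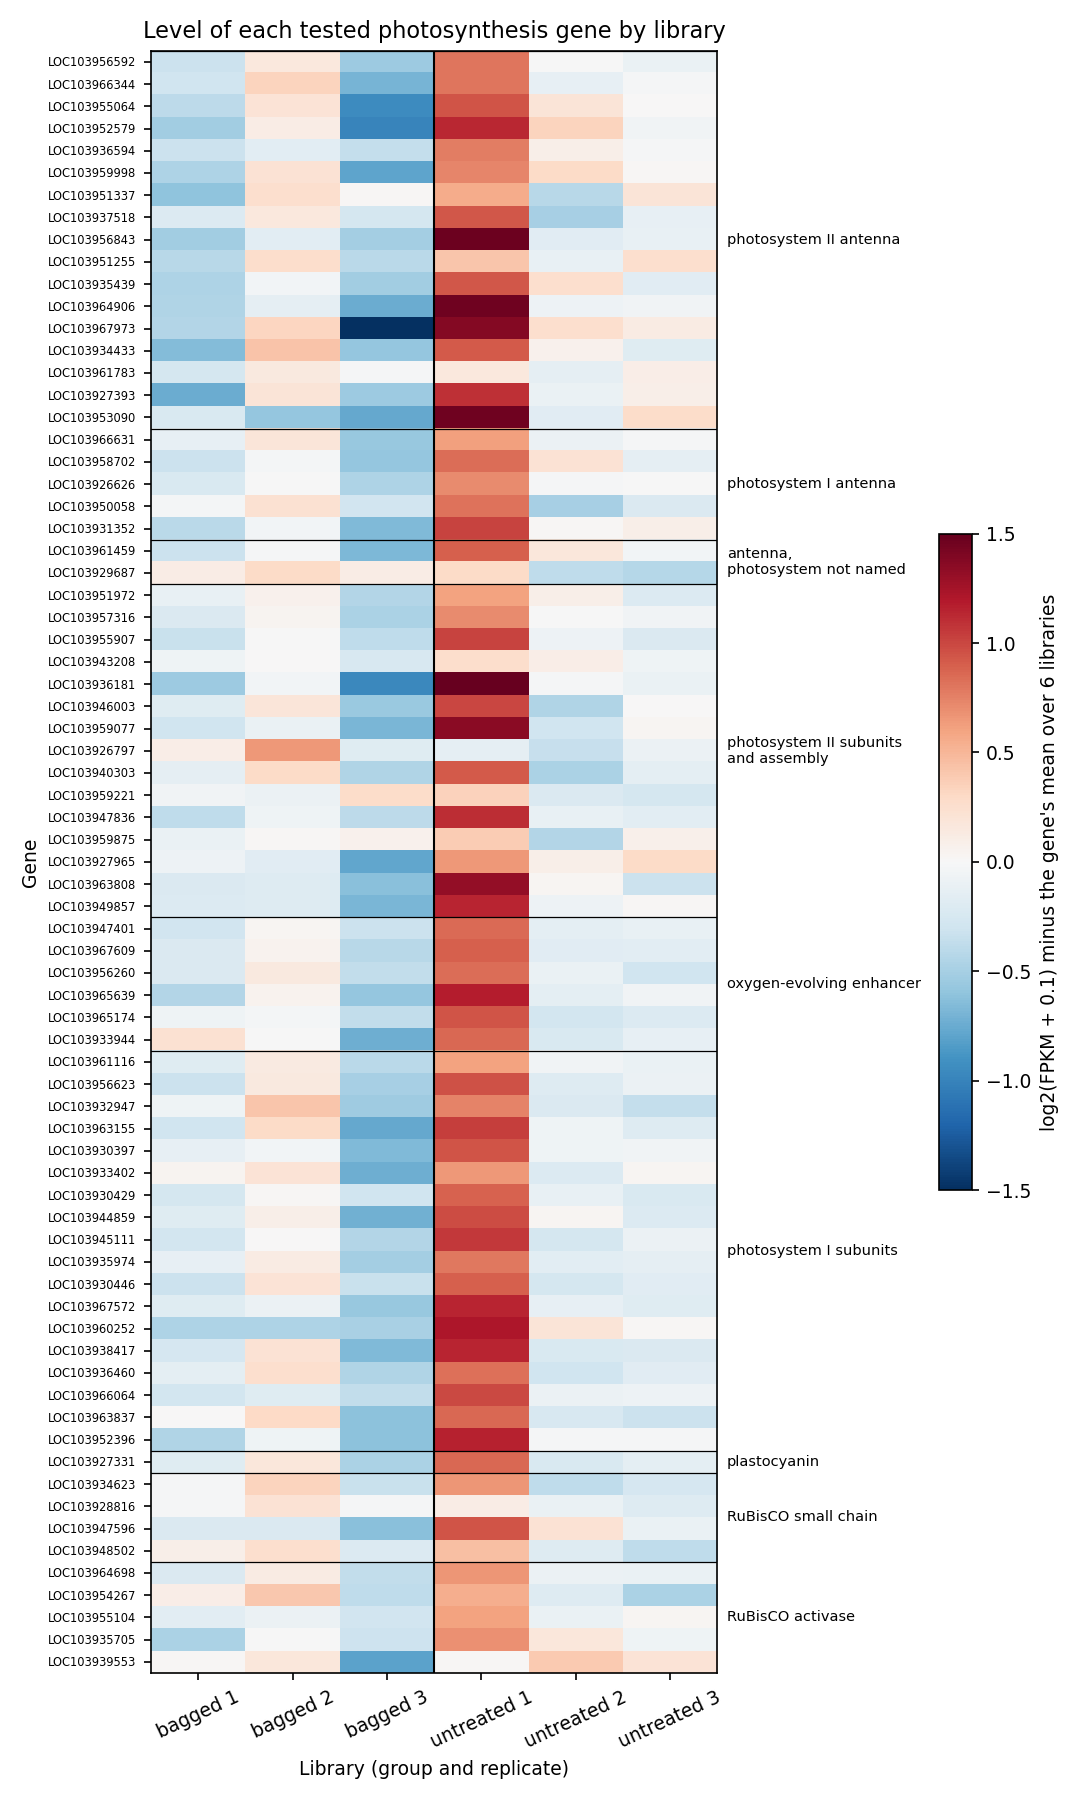
Level of each of the 73 tested genes (rows, grouped by role and ordered by mean FPKM within it) in each library, as log2(FPKM + 0.1) minus the gene's mean over the 6 libraries. The untreated 1 column is red in nearly every row, and bagged 3 is the bluest column in 55 of 73 rows.

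The size of the median difference depended mostly on that library. With untreated replicate 1 left out, the median log2 fold change of the members was -0.10, with 51 of 73 below 0, against a median of 0.002 over all tested genes. Again no member was called, where 1.19% of all tested genes were (edgeR). In that fit 4 members had an unadjusted p below 0.05. LOC103960252, LOC103936594 and LOC103947596 were lower in bagged skin and LOC103929687 was higher. No share over all tested genes was computed for this count or for the 51 below 0. Leaving out untreated replicate 2 or 3 gave a median of -0.64 in each case, and leaving out a bagged replicate gave -0.46, -0.67 and -0.36 for replicates 1, 2 and 3. All 3 bagged libraries lay below all 3 untreated ones in 10 of the 73 members, or 13.7%, against 10.7% of all tested genes. No member had all bagged libraries above all untreated ones, against 10.9% of all tested genes.

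**Figure D3:**
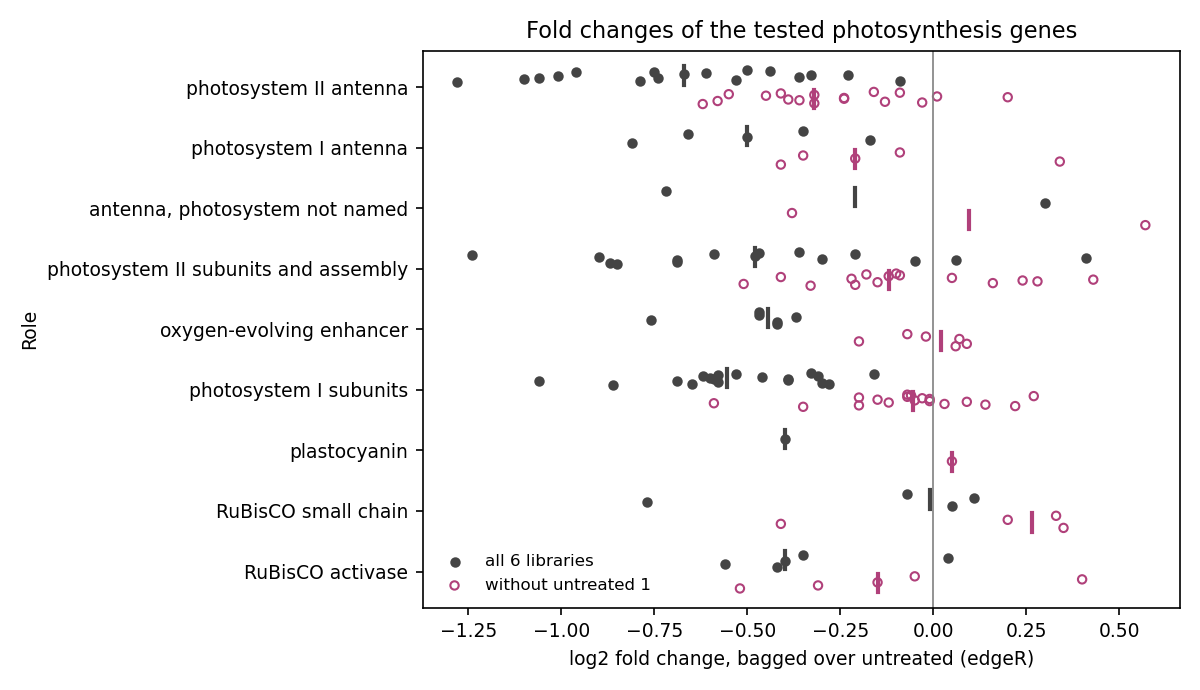
The log2 fold change of bagged over untreated skin for each tested gene by role, fitted on all 6 libraries (filled points) and without untreated 1 (open points), with vertical bars at the role medians. Most filled points lie below 0 (67 of 73), and without untreated 1 the medians of all roles are higher, between -0.32 for the photosystem II antenna and 0.27 for the RuBisCO small chain.

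The photosystem II antenna had the lowest median fold change of the roles with more than 1 tested gene. All 17 tested members were below 0, with a median log2 fold change of -0.67, and 7 of the 16 members with an unadjusted p below 0.05 were among them. The 4 members that overlap a gene with at least 10% of their own count all belong to these 7. They are LOC103952579, LOC103956843, LOC103964906 and LOC103953090, and their reads may not have been separated from those of the other gene. The most abundant gene of the role was the CP26 gene LOC103956592 (scaffold NW_008988179.1, 692317 to 694790), one of the minor antenna proteins that link the main light-harvesting complex to the reaction centre. It had 126, 175 and 108 FPKM in bagged skin, against 275, 157 and 146 FPKM in untreated skin. Only untreated replicate 1 was clear of the bagged range, and the log2 fold change was -0.50 ± 0.27 (SE; edgeR adjusted p = 0.414). The CP29.1 gene LOC103966344, another minor antenna protein, had 77.8, 120 and 58.6 FPKM in bagged skin and 166, 87.8 and 94.2 FPKM in untreated skin (-0.44 ± 0.31). LOC103955064, another antenna gene, had 62.0, 93.9 and 42.2 FPKM in bagged skin and 157, 93.2 and 81.6 FPKM in untreated skin (-0.75 ± 0.33). In these genes, too, the groups overlapped, and bagged replicate 2 stood level with untreated replicates 2 and 3 or above them.

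Genes of the main light-harvesting complex of photosystem II, described as LHCII type 1, differed among themselves. The lowest fold change of the role was that of LOC103953090, a weakly expressed copy, with 1.23, 0.942 and 0.808 FPKM in bagged skin and 4.18, 1.28 and 1.78 FPKM in untreated skin. The groups did not overlap, although bagged replicate 1 lay close to untreated replicate 2, and the log2 fold change was -1.28 ± 0.48 (edgeR adjusted p = 0.248). A gene on the other strand overlaps it and holds 253 counts, more than the 185 of LOC103953090 itself. With the strand setting unknown, reads of this pair may not have been separated. The highest fold change of the role was that of LOC103961783, with 7.84, 10.5 and 9.36 FPKM in bagged skin and 10.6, 8.63 and 10.1 FPKM in untreated skin. Here untreated replicate 1 hardly differed from bagged replicate 2, and the log2 fold change was -0.09 ± 0.15. Of the LHCII type 1 copies, 3 sit on scaffold NW_008988048.1 starting at 572742, 581044 and 584229, and these had 2, 0 and 0 counts in all 6 libraries together. Without untreated replicate 1, the photosystem II antenna kept the lowest median of any role, -0.32, with 15 of 17 members below 0.

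The photosystem I antenna, which serves the second photosystem, had 5 tested members with a median of -0.50, all below 0. LOC103966631, the type 6 protein, had 87.2, 107 and 63.7 FPKM in bagged skin and 145, 89.4 and 93.5 FPKM in untreated skin (-0.35 ± 0.23). LOC103958702, the P4 type, had 58.1, 71.0 and 48.4 FPKM in bagged skin and 130, 84.4 and 65.8 FPKM in untreated skin (-0.66 ± 0.25). The second type 6 gene, LOC103926626, had 31.0, 36.3 and 26.4 FPKM in bagged skin and 59.5, 35.9 and 36.3 FPKM in untreated skin (-0.50 ± 0.22). The groups overlapped in each of these, by 1 or 2 untreated libraries. They did not overlap in the second P4 gene, LOC103931352, which had 10.8, 14.0 and 9.02 FPKM in bagged skin and 29.0, 14.5 and 15.3 FPKM in untreated skin (-0.81 ± 0.29; edgeR adjusted p = 0.229). The least different was LOC103950058, described as photosystem I chlorophyll a/b-binding protein 5, with 15.3, 18.3 and 12.8 FPKM in bagged skin and 27.5, 11.0 and 13.4 FPKM in untreated skin (-0.17 ± 0.33). There untreated replicate 2 was the lowest of all 6 libraries, and without untreated replicate 1 the log2 fold change was 0.34 ± 0.19.

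The antenna genes whose description names no photosystem went different ways. LOC103961459 had 106, 131 and 83.7 FPKM in bagged skin and 247, 150 and 129 FPKM in untreated skin, with bagged replicate 2 just above untreated replicate 3. Its log2 fold change was -0.72 ± 0.26 (adjusted p = 0.225 with edgeR and 0.0489 with DESeq2). LOC103929687 (scaffold NW_008988490.1, 111701 to 113341) had 20.6, 23.4 and 20.6 FPKM in bagged skin and 23.4, 14.7 and 14.2 FPKM in untreated skin. Untreated replicate 1 stood level with bagged replicate 2, and untreated replicates 2 and 3 lay below all bagged libraries. The log2 fold change was 0.30 ± 0.20 with all libraries and 0.57 ± 0.12 without untreated replicate 1, where the edgeR adjusted p was 0.0994. The remaining gene of this kind, a pseudogene, had no count.

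Subunits and assembly factors of photosystem II had 15 tested members, 13 below 0, with a median log2 fold change of -0.48 and the widest spread of any role. The 10 kDa polypeptide gene LOC103951972, for a small protein beside the water-splitting site, had 464, 527 and 369 FPKM in bagged skin and 763, 534 and 436 FPKM in untreated skin (-0.36 ± 0.21). It ranked 94th of all genes by mean FPKM. The second 10 kDa gene, LOC103936181, had 25.1, 35.6 and 18.6 FPKM in bagged skin and 117, 36.0 and 34.2 FPKM in untreated skin. Untreated replicate 1 reached 3.41 times the median of the other libraries in this copy and 1.65 times in the other, and the log2 fold change was -1.24 ± 0.49 (edgeR adjusted p = 0.276). LOC103957316, reaction centre W protein, had 93.2, 112 and 78.4 FPKM in bagged skin and 177, 108 and 105 FPKM in untreated skin (-0.47 ± 0.22). LOC103955907, a 5 kDa protein, had 62.8, 78.8 and 60.4 FPKM in bagged skin and 159, 74.9 and 67.9 FPKM in untreated skin (-0.59 ± 0.31). In both genes bagged replicate 2 exceeded untreated replicates 2 and 3.

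The psbY genes, for a small core protein of photosystem II, differed from each other in pattern. LOC103926797 had 29.8, 43.8 and 24.5 FPKM in bagged skin and 25.4, 22 and 26.3 FPKM in untreated skin, a log2 fold change of 0.41 ± 0.22, the highest among all members (edgeR adjusted p = 0.416). It was 1 of 4 tested members in which untreated replicate 1 was not the highest library. The other psbY gene, LOC103949857, which lies outside the naming rule and was chosen after its values were seen, had 3.89, 3.93 and 2.78 FPKM in bagged skin and 10.1, 4.26 and 4.59 FPKM in untreated skin. Its groups did not overlap (-0.85 ± 0.37). Genes for building and repairing the complex differed among themselves, and the 3 given here were also named after their values were seen. HCF136 (LOC103943208), an assembly factor, had 42.9, 44.9 and 38.1 FPKM in bagged skin and 53.8, 47.9 and 43.0 FPKM in untreated skin (-0.21 ± 0.11). The D1 processing protein gene PSB27-H2 (LOC103959221) had 14.9, 14.5 and 18.7 FPKM in bagged skin and 19.7, 13.3 and 12.9 FPKM in untreated skin (0.06 ± 0.19). Untreated replicate 1 was 1.25 and 1.36 times the median of the other libraries in these genes. In the repair protein gene PSB27-H1 (LOC103947836) it was 2.41 times, with 8.51, 10.6 and 8.49 FPKM in bagged skin and 24.1, 10.3 and 9.99 FPKM in untreated skin (-0.69 ± 0.34).

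Oxygen-evolving enhancers, the extrinsic proteins that hold the water-splitting site of photosystem II, had 6 tested members, all below 0, with a median log2 fold change of -0.44. LOC103947401, enhancer protein 2, had 190, 236 and 185 FPKM in bagged skin and 417, 210 and 215 FPKM in untreated skin (-0.47 ± 0.26). LOC103967609, enhancer protein 1, had 149, 180 and 130 FPKM in bagged skin and 322, 154 and 155 FPKM in untreated skin (-0.47 ± 0.29). LOC103956260, enhancer protein 3-2, had 121, 156 and 109 FPKM in bagged skin and 252, 131 and 114 FPKM in untreated skin (-0.37 ± 0.29). In all 6 tested members of this role, untreated replicate 1 was highest and untreated replicates 2 and 3 fell within the bagged range. The second gene for protein 2, LOC103965639, gave the lowest fold change, with 73.9, 104 and 67.1 FPKM in bagged skin and 227, 90.3 and 96.6 FPKM in untreated skin (-0.76 ± 0.36; edgeR adjusted p = 0.357). Without untreated replicate 1 the median of the role was 0.02, with 3 of 6 members below 0.

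Photosystem I subunits had 18 tested members, all below 0, with a median log2 fold change of -0.55, and all 18 were highest in untreated replicate 1 and lowest in bagged replicate 3. LOC103961116, subunit III, on which plastocyanin docks, had 111, 139 and 95.0 FPKM in bagged skin and 191, 122 and 118 FPKM in untreated skin (-0.33 ± 0.21). LOC103956623, subunit II, which binds ferredoxin, had 93.7, 130 and 82.7 FPKM in bagged skin and 228, 102 and 110 FPKM in untreated skin (-0.53 ± 0.32). LOC103932947, subunit O, had 81.3, 113 and 58.7 FPKM in bagged skin and 142, 72.9 and 66.4 FPKM in untreated skin (-0.16 ± 0.33), with bagged replicates 1 and 2 above untreated replicates 2 and 3. In 15 of the 18, untreated replicates 2 and 3 lay within the bagged range.

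The smallest p-value of all members was that of subunit IV B of photosystem I, LOC103960252 (scaffold NW_008988045.1, 527530 to 528840), a small subunit on the stromal side. It had 23.1, 23.1 and 22.7 FPKM in bagged skin, against 74.3, 36.6 and 32.3 FPKM in untreated skin. The bagged libraries were nearly equal, all 3 untreated libraries lay above them, and the log2 fold change was -1.06 ± 0.30 (edgeR adjusted p = 0.129). DESeq2 called it (log2 fold change -1.05, adjusted p = 0.00715), and so did the authors' deposited table (-1.05, adjusted p = 0.00695). Without untreated replicate 1 it was -0.59 ± 0.12, with an edgeR adjusted p of 0.0849.

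Plastocyanin, the soluble copper protein between the cytochrome complex and photosystem I, had a single gene, LOC103927331 (scaffold NW_008988050.1, 229793 to 230629). It had 95.8, 123 and 78.4 FPKM in bagged skin and 198, 92.9 and 98.4 FPKM in untreated skin. Untreated replicates 2 and 3 lay within the bagged range, and the log2 fold change was -0.40 ± 0.30 (edgeR adjusted p = 0.583) with all libraries and 0.05 ± 0.18 without untreated replicate 1.

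RuBisCO small chains, which code for the nuclear subunit of the carbon-fixing enzyme, showed no common direction, with 2 of 4 tested members below 0 and a median of -0.01. LOC103934623 (scaffold NW_008988697.1, 181096 to 182450) was the most abundant photosynthesis gene, at rank 79 of all genes by mean FPKM. It had 559, 715 and 448 FPKM in bagged skin and 893, 434 and 475 FPKM in untreated skin, so that bagged replicates 1 and 2 exceeded untreated replicates 2 and 3 (-0.07 ± 0.29). LOC103928816 (scaffold NW_008988462.1, 376496 to 377902) had 361, 426 and 361 FPKM in bagged skin and 395, 341 and 321 FPKM in untreated skin. Its libraries lay close together, bagged replicate 2 was the highest, and the log2 fold change was 0.11 ± 0.11. LOC103947596 had 37.9, 37.7 and 28.4 FPKM in bagged skin and 84.7, 51.0 and 40.9 FPKM in untreated skin. Its groups did not overlap, and the log2 fold change was -0.77 ± 0.26, with an adjusted p of 0.198 with edgeR, 0.0442 with DESeq2 and 0.0446 in the authors' deposited table. These 3 genes differed in how far untreated replicate 1 stood above the median of the other libraries, 1.88-fold, 1.09-fold and 2.23-fold in the order given.

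RuBisCO activase, the chaperone that frees RuBisCO of inhibiting sugars, had 5 tested members, 4 of them below 0, with a median log2 fold change of -0.40. LOC103964698 had 112, 142 and 101 FPKM in bagged skin and 206, 123 and 122 FPKM in untreated skin (-0.35 ± 0.22). LOC103954267 had 71.0, 87.9 and 51.2 FPKM in bagged skin and 97.1, 58.2 and 47.6 FPKM in untreated skin (0.04 ± 0.28). In both genes the bagged libraries spanned the levels of untreated replicate 2. The weaker genes LOC103955104 and LOC103935705 lay between 5.32 and 12.1 FPKM in every library, with log2 fold changes of -0.40 ± 0.19 and -0.56 ± 0.22. None of the 5 tested activases reached an untreated replicate 1 level above 1.70 times the median of the other libraries.

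The make-up of the photosynthesis transcripts, as shares of the summed member FPKM, differed between groups in some roles. RuBisCO small chains made up 22.5%, 22.1% and 23.2% of the summed member FPKM in bagged skin, against 16.6%, 18.2% and 19.0% in untreated skin. Within each group this share was lower the higher the summed member FPKM of the library, so it was not independent of that sum. Leaving LOC103928816 out, the small chain shares were 15.4%, 15.3% and 14.7% in bagged skin and 12.4%, 11.6% and 12.7% in untreated skin. Without that gene the shares did not follow the order of the sums. The groups did not overlap in either reckoning, and untreated replicates 2 and 3 stood with untreated replicate 1. These shares rested mainly on LOC103934623 and LOC103928816. The small chain LOC103947596 went the other way, lower in every bagged library than in any untreated one. The photosystem II antenna made up 12.7%, 14.7% and 13.1% in bagged skin and 15.8%, 15.6% and 15.7% in untreated skin. Counted without the small chains, its shares were 16.3%, 18.8% and 17.1% in bagged skin and 18.9%, 19.1% and 19.4% in untreated skin, so bagged replicate 2 came close to the untreated libraries. Photosystem I subunits took 17.6%, 17.7% and 16.6% in bagged skin and 19.3%, 17.4% and 17.8% in untreated skin, where the groups overlapped. RuBisCO activases took 4.61%, 4.58% and 4.57% in bagged skin and 3.95%, 4.34% and 4.21% in untreated skin. Antenna genes with no photosystem named took 2.96%, 2.88% and 2.88% in bagged skin and 3.25%, 3.61% and 3.24% in untreated skin. The groups did not overlap in these roles, and they overlapped in the remaining ones. These shares are a description and were picked after the values were seen, with no test.

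**Figure D4:**
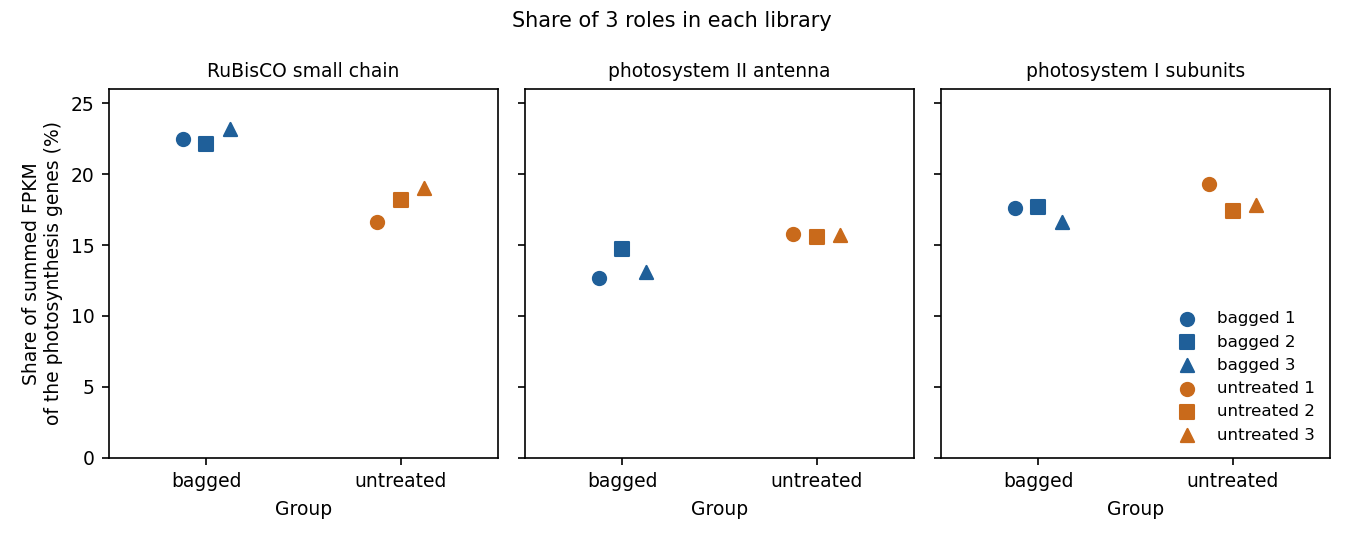
Share of the summed FPKM of the photosynthesis genes taken by 3 roles in each library, with the bagged group left of the untreated group and a marker shape per replicate. The small chain share is 22.1% to 23.2% in bagged and 16.6% to 19.0% in untreated libraries, the photosystem II antenna share lies the other way, and photosystem I subunits overlap.

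Related genes were taken from 8 lists with 316 distinct tested genes, which also hold mitochondrial and peroxisomal enzymes of photorespiration and nuclear transcription factors. Of these, 2 genes (0.633%) were called lower in bagged skin and none higher (edgeR), against 1.69% and 0.971% of all tested genes. An unadjusted p below 0.05 was found for 31 (9.81%), against 15.9% of all tested genes, and the median log2 fold change was -0.14. Untreated replicate 1 was highest in 226 of them (71.5%), against 20.0% of all tested genes. This was so in 18 of 38 tested photorespiration genes and 14 of 28 tested plastid regulators. Its level over the median of the other libraries had a median of 1.62 in other electron transport genes (77 tested), 1.43 in plastid ribosomal proteins (71), 1.42 in chlorophyll breakdown (13), 1.40 in photoprotection (13), 1.32 in other Calvin cycle genes (36), 1.29 in chlorophyll synthesis (44), 1.16 in plastid regulators (28) and 1.09 in photorespiration (38). Each of these list medians lay below the 2.07 of the photosynthesis genes, but the lists mix genes of different kinds. Other electron transport, for example, holds both leaf-type and root-type ferredoxins. The leaf-type gene LOC103946316 had 2.13 and the root-type gene LOC103954234, named after its values were seen, had 1.06. An excess as large as that of the members was therefore not particular to them.

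**Figure D5:**
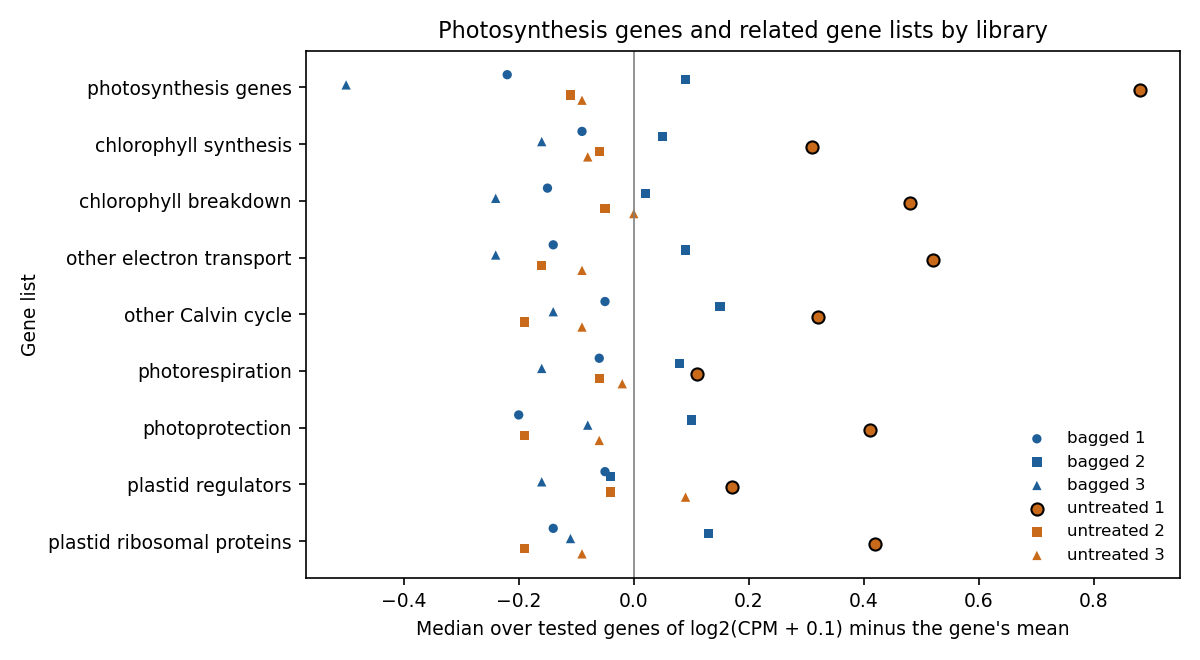
Median over the tested genes of each list of log2(CPM + 0.1) minus the gene's mean, by library, with blue markers for bagged and orange for untreated libraries. Untreated 1 (outlined) is the highest library in all 9 rows, from 0.88 in the photosynthesis genes to 0.11 in photorespiration.

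Chlorophyll synthesis held 1 of the called genes, a gene for subunit ChlH of magnesium chelatase, the enzyme that commits porphyrin to chlorophyll. LOC103933269 had 1.07, 0.926 and 0.916 FPKM in bagged skin and 3.46, 1.83 and 2.07 FPKM in untreated skin. All untreated libraries lay above all bagged ones, and it fell by 1.34 ± 0.26 on the log2 scale (edgeR adjusted p = 0.0447). The call was lost when any 1 of the 6 libraries was left out (adjusted p 0.0506 to 0.128) and with limma-voom. The other ChlH copies, LOC103941422 and LOC103946503, had log2 fold changes of -1.14 ± 0.26 (adjusted p = 0.0676) and -1.04 ± 0.34 (0.187). LOC103941422 had 4.24, 4.61 and 2.83 FPKM in bagged skin and 11.8, 7.15 and 6.75 FPKM in untreated skin, again with no overlap. Both were named after their values were seen. The most abundant gene of the list, the geranylgeranyl diphosphate reductase gene LOC103931434, which makes the phytol tail, had 47.5, 63.1 and 48.0 FPKM in bagged skin and 84.0, 51.8 and 51.4 FPKM in untreated skin (-0.24 ± 0.21).

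The second called gene came from the photorespiration list, whose text pattern also took in the serine pathway. LOC103926830, a D-3-phosphoglycerate dehydrogenase gene of serine synthesis, had 0.588, 1.14 and 1.20 FPKM in bagged skin and 4.18, 3.44 and 3.32 FPKM in untreated skin. The untreated libraries were close to each other and above all bagged ones, and it fell by 1.90 ± 0.29 (edgeR adjusted p = 0.0186). The call was lost without untreated replicate 1 (adjusted p = 0.0675, the highest on leaving out 1 library), untreated replicate 2 or bagged replicate 2. With limma on either FPKM scale only 1 related gene was called, so at least 1 of the 2 calls was lost there. The most abundant gene of that list, the serine hydroxymethyltransferase gene LOC103962557, had 68.0, 71.3 and 65.8 FPKM in bagged skin and 70.2, 66.7 and 71.3 FPKM in untreated skin (-0.03 ± 0.07), with no library apart.

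In the remaining lists no gene was called, and the most abundant gene of each stood as follows. The leaf-type ferredoxin gene LOC103946316, which takes electrons from photosystem I, had 319, 398 and 295 FPKM in bagged skin and 657, 308 and 265 FPKM in untreated skin (-0.29 ± 0.32). The CP12-1 gene LOC103967177, for a small regulator of the Calvin cycle, had 536, 677 and 592 FPKM in bagged skin and 711, 488 and 475 FPKM in untreated skin (0.10 ± 0.17). Untreated replicate 1 was again the highest library in both, and untreated replicates 2 and 3 of CP12-1 lay below all bagged ones. PAO, the pheophorbide a oxygenase gene that opens the chlorophyll ring in breakdown, had 34.4, 42.4 and 31.0 FPKM in bagged skin and 57.4, 38.2 and 38.7 FPKM in untreated skin (-0.32 ± 0.18). The stress enhanced protein 2 gene LOC103935051, of a family related to the antenna proteins, had 103, 120 and 111 FPKM in bagged skin and 128, 93.6 and 92.4 FPKM in untreated skin (0.08 ± 0.14). Untreated replicate 1 was the highest library in 12 of 13 tested breakdown genes and in 32 of 44 tested synthesis genes. The plastid ribosomal protein S9 gene LOC103950987 had 56.4, 74.4 and 46.2 FPKM in bagged skin and 85.5, 44.3 and 56.7 FPKM in untreated skin (-0.08 ± 0.26). The PIF3 gene LOC103955840, for a light-regulated repressor of greening in Arabidopsis, had 75.8, 66.3 and 57.7 FPKM in bagged skin and 64.3, 74.2 and 68.7 FPKM in untreated skin (-0.06 ± 0.11), and here untreated replicate 1 did not lead.

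Markers of other tissues that a peel can hold were summed in the same libraries. Calls are by edgeR at adjusted p below 0.05, where 1.69% of all tested genes were lower and 0.971% higher in bagged skin. Cork markers had 18 of 25 genes tested, 14 of them lower and none higher in bagged skin, with 1 gene at 0 in all libraries. Their summed FPKM was 19.2 to 41.8 in bagged and 167 to 280 in untreated libraries, and untreated replicate 1 was the highest library in none of the 18. Epidermis and cuticle markers had 16 of 30 tested, 4 higher and none lower, with 5 at 0 and sums of 176 to 282 FPKM in bagged and 119 to 143 FPKM in untreated libraries. The list for stone cells, the lignified cells of pear flesh, was made of secondary wall genes. It had 4 of 26 tested, 2 lower and none higher, with 8 at 0 and sums of 1.96 to 2.33 FPKM in bagged and 4.80 to 7.38 FPKM in untreated libraries. Genes of flesh sugar storage had 18 of 25 tested and none called, with 3 at 0 and sums of 701 to 778 FPKM in bagged and 519 to 619 FPKM in untreated libraries, lowest in untreated replicate 1. Phloem and xylem markers had 6 of 12 tested and none called, with none at 0 and sums of 4.77 to 6.85 FPKM in bagged and 4.92 to 32.0 FPKM in untreated libraries. Of these, the sieve element occlusion gene LOC103938158, of sieve tubes, had 1.83, 0.797 and 0.924 FPKM in bagged skin and 28.8, 1.54 and 11.5 FPKM in untreated skin, and was named after its values were seen. It was the only 1 of the 6 tested phloem and xylem markers with its highest level in untreated replicate 1, whose level over the median of the other libraries had a median of 0.931 over the list. The part of such tissues in the photosynthesis values was not tested.

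The authors' deposited table gives a fold change for 78 of the 84 members and an adjusted p below 0.05 for 2 of them, LOC103960252 and LOC103947596. By the same rule it has 1532 of 32473 genes.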

How the data were processed

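RNA from fruit skin was extracted with CTAB and sequenced as 6 libraries made with an NEBNext Ultra kit, per the labels' protocols. The submitters' processing notes name HISAT2 as a tool. How reads were counted, with or without strand, and on which build is not given in the sources used here, and scaffold positions are printed as deposited. The deposited table holds raw read counts per gene and library and the authors' FPKM, and also their scaled group mean signal (not used here), log2 fold change and p-value from a test the table does not name, per the file headers.

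The test was run with edgeR 4.0.16 under R 4.3.3 (filterByExpr with minimum count 10 and total 15, TMM factors, quasi-likelihood test, no covariate, bagged against untreated), and p-values were adjusted over all 25139 tested genes. The SE is the log2 fold change over the square root of F. The script was tested on simulated data. Levels are the authors' FPKM, which also decide whether groups overlap. Members, roles and lists were chosen with earlier results of these data known. Related and marker lists are text patterns on the descriptions. Named members are, per role, the 3 with the highest mean FPKM, those called and those with the lowest and highest fold change. From the related lists they are the called genes and the most abundant gene of each. Others are said to lie outside this rule. Alternatives were 3 other scalings, TMM factors without the members, 2 other filters, DESeq2 1.42.0, limma-voom (limma 3.58.1), robust estimation, limma on log2(FPKM + 1) and log2(FPKM + 0.1), a replicate block, and each library left out. Libraries of 1 group differed beyond sampling noise (chi-square of 12 to 20.4 for each degree of freedom). No reference sequence was used here.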

Additional observations from a re-analysis of the deposited data

How the results depend on the processing

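No photosynthesis gene was called, higher or lower, under any of the 18 other settings except DESeq2, which called 3 lower. Their median log2 fold change stayed below 0 in all settings, from -0.67 to -0.10 with 1 library left out (main value -0.48), and that of the oxygen-evolving enhancers was 0.02 without untreated replicate 1. On a log2 scale the ratio of their mean share of counts was -0.44, with -0.38 for summed FPKM and -0.53 without the 3 most abundant members. With 1 library left out this ratio was -0.60 to -0.09, largest in size without bagged replicate 2 and smallest without untreated replicate 1. Genes of the related lists (2 lower, 0 higher) had 7 lower and 3 higher with DESeq2, and 4 lower with library size alone. They had 3 lower with upper quartile factors, 3 lower and 1 higher with no filter, and 3 lower and 2 higher with the replicate block. With limma-voom and with limma on either FPKM scale 1 was lower. With 1 library left out, 0 to 1 were lower and 0 to 1 higher. Over all genes, 244 higher and 426 lower became 756 and 745 with DESeq2 and 70 to 306 and 135 to 386 with 1 library left out. The cause was not tested. Only 2 of the 43 named genes were called in the main fit, so most comparisons with another setting were of genes not called. Of 774 such comparisons, 759 kept their side of the threshold, 12 lost it and 3 gained it, and no called direction turned. All 12 losses were of the 2 called genes, so the high share that kept their side does not make those calls stable. With the replicate number as a block, the median of the photosynthesis genes was -0.45, and over all genes 358 were higher and 370 lower. The labels do not say that the numbers pair the libraries. Correlations of deviations were -0.044, 0.083 and 0.057 for same-numbered libraries and -0.13 to 0.077 for others, which does not settle whether they do. With a median SE of 0.29 on 3 libraries a group, small differences were not detectable here.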
